A study of Citrus sinensis with 10 samples.

Results

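Fruit RNA of sweet orange (Citrus sinensis) was compared between Hong Anliu and Anliu at 170 days after flowering. Anliu is the wild type, and Hong Anliu is a bud mutant of it, a graft-propagated line started from a shoot that had changed on the tree. The comparison rests on 2 of the 10 arrays of the series, those on which the labels pair the 170-day mutant extract (R3) with the 170-day wild-type extract (CK3). On one array the mutant was labelled with Cy5 and the wild type with Cy3, and on the other the dyes were exchanged. The other 8 arrays hold the same kind of pair at 120, 150, 190 and 220 days. The labels name no treatment, the tissue is given as fruit, and how many trees a collection was picked from is not stated. Both arrays carry the same pair of extracts, so at 170 days each genotype is 1 sample. A difference between the genotypes at that age therefore has no biological replicate and no test.

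Sweet orange flesh owes its colour to carotenoids. Lycopene is the red, linear carotenoid of the pathway, and cyclase enzymes normally carry it on to the yellow and orange carotenoids of a ripening orange. Hong Anliu is known for red flesh in which lycopene accumulates. Ripening in citrus also brings loss of chlorophyll, a rise in sugar and a decline in acid, and the abundance of many transcripts changes with it.

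The arrays carried 5856 cDNA clones, each printed as 3 spots, and a clone is known only by plate, row and column (4.H.11 is plate 4, row H, column 11). No clone was matched to a gene, so the results are given by clone. Of these, 5852 passed the filter on dim clones, and 5816 of them were above the blank spots in both genotypes on both 170-day arrays. The median intensity over clone spots was 2647 and 2230 for the mutant on the 2 arrays, against 3982 and 4004 for the wild type. All ratios below are log2 of mutant over wild type, so a negative value is a lower signal in the mutant, and each is relative to the typical clone of its array. An SD given for a clone is that between the 2 arrays and covers hybridisation error only.

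The direction of the 170-day ratios goes against that of the neighbouring collections. Across clones the 170-day ratio correlated at r = -0.32 with that of 150 days, at -0.27 with 190 days and at -0.51 with 220 days, and at 0.20 with 120 days. Each pairing of a single 170-day array with an array of 150, 190 or 220 days was negative, between -0.52 and -0.23. The labels state the dyes and the ages differ, so the labelled direction is kept here. Whether mutant and wild-type fruit or RNA were exchanged at 170 days was not tested, and under an exchange every lower clone below would be a higher one (465 lower and 998 higher).

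Many clones differed at 170 days, and the large differences were nearly all lower in the mutant. On both arrays 998 of 5852 clones (17.1%) were at least 2-fold lower in the mutant, while 465 (7.95%) were at least 2-fold higher. Together they made up 25% of the clones. With each array centred on 4 control spots (Y1 to Y4) that the sources assign no ratio, the median clone moved to -0.59 and 1599 clones were lower and 72 higher. The ratios of those control spots ran from 0.32 to 0.82 at 170 days and from -1.31 to 2.42 at the other ages. The median ratio was -1.56 among the lower clones and 1.35 among the higher ones. The excess of lower clones grew with the size of the difference. At 1.5-fold 54.1% of the clones past the limit were lower, at 2-fold 68.2%, at 3-fold 85.2% and at 4-fold 91.2%. At 8-fold 65 clones were lower and 0 were higher. The 1st percentile of the ratio was -3.13 and the 99th was 1.75, around a median of 0.03.

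**Figure D1:**
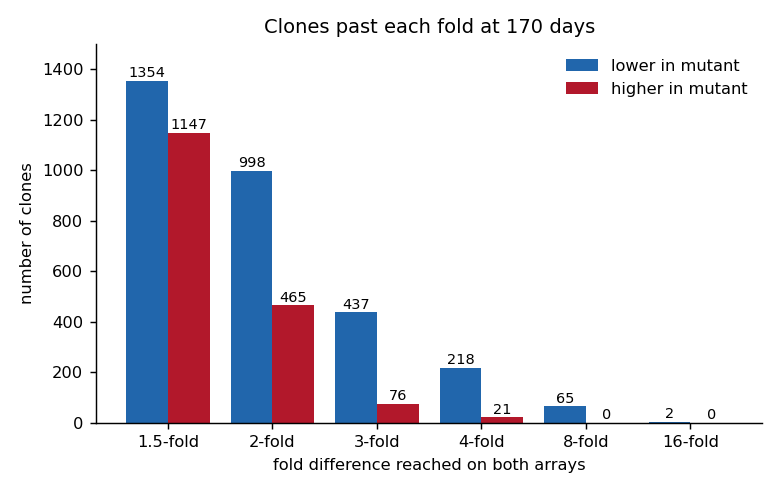
Number of clones (vertical axis) at or past each fold difference on both 170-day arrays, lower in the mutant in blue and higher in red. The bars are near each other at 1.5-fold (1354 and 1147) and far apart at 4-fold (218 and 21).

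The dye-swapped arrays gave nearly the same ratios. They correlated across clones at r = 0.97, and the SD of the ratio over clones, 0.98, was far above the hybridisation SD of 0.18. The median SD of the 3 spots of a clone was 0.06 on each array. Of the clones 2625 were lower on both arrays, 2753 were higher on both and 473 had opposite signs, while 1 clone was 2-fold in opposite directions. Near the 2-fold limit, 195 clones had a smaller ratio (in size) between 1 and 1.1 and were counted, and 218 had one between 0.9 and 1 and were not. So the counts move with the limit, though the excess of lower clones does not rest on clones near it.

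**Figure D2:**
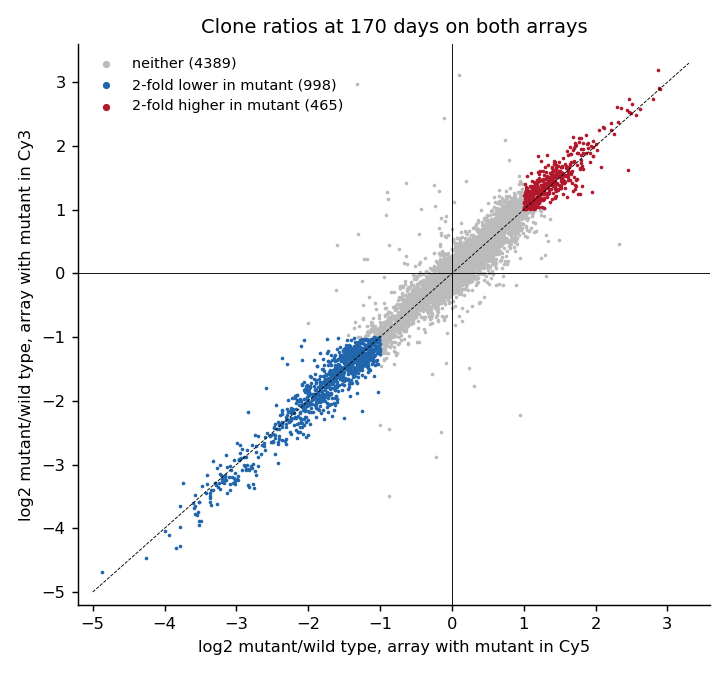
Log2 ratio of mutant over wild type at 170 days for each clone, on the array with the mutant in Cy5 (horizontal) and in Cy3 (vertical), with the line of equality dashed. Clones 2-fold lower on both arrays (998, blue) stretch to below -4, and clones 2-fold higher on both (465, red) reach about 3.

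The lowest ratio was that of clone 4.H.11. Its intensity was 1022 in the mutant against 38796 in the wild type on the first array, and 794 and 34437 on the second. The ratios of 4.H.11 were thus -4.87 and -4.68, a mean of -4.77 ± 0.13 (SD, n = 2 arrays), or 27.4-fold lower in the mutant. With the authors' deposited ratio per spot the mean of 4.H.11 was -3.90, and clone 27.B.2 was lower at -4.01. The size and rank of such a ratio thus depend on the normalization, which the SD does not cover. On both arrays the mutant signal of 4.H.11 was small but above the blank spots, and the wild-type signal was far from it. At the other ages its ratio lay between -0.81 (190 days) and 1.47 (220 days), so only at 170 days was it this far from 0 on either side.

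Clone 10.D.4 followed at -4.36 ± 0.14 (SD, n = 2 arrays), with intensities of 569 and 538 in the mutant against 14820 and 19244 in the wild type. Its ratio was 1.47 at 150 days and 1.41 at 220 days, so the mutant was 2-fold higher in the collections before and long after. Clone 27.B.2 stood at -4.08 ± 0.33, with 802 and 428 in the mutant against 15917 and 13796 in the wild type. Clone 9.A.5 stood at -4.04 ± 0.35, with 405 and 206 in the mutant against 7221 and 6162 in the wild type. Both were higher in the mutant at 150 days (1.18 for 27.B.2 and 1.23 for 9.A.5). Clone 27.A.5 stood at -4.02 ± 0.13, with 2065 and 1230 in the mutant against 38364 and 34641 in the wild type, and at the other ages it stayed between -0.59 and 0.73. The signals of the genotypes did not overlap in these 5 clones, which follows from their choice as the lowest ratios. The next 5 clones, 10.A.7, 4.H.4, 12.G.6, 23.C.7 and 25.C.7, had mean ratios between -4.01 and -3.70, with SDs between 0.04 and 0.30.

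The highest ratio was that of clone 15.G.9. Its intensity was 9647 and 8349 in the mutant against 1830 and 1497 in the wild type, a mean ratio of 3.03 ± 0.24 (SD, n = 2 arrays), or 8.18-fold higher in the mutant. With the authors' deposited ratio per spot the mean of 15.G.9 was 3.64, and clone 9.C.10 was higher at 3.84. At 220 days 15.G.9 was lower in the mutant, at -1.58. Clone 22.A.8, with 8555 and 6042 in the mutant against 1610 and 1303 in the wild type, stood at 2.89 ± 0.02 (170 days) and at -1.42 (220 days). The signals of mutant and wild type were well apart in both clones, which were chosen by their ratios.

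Clone 9.C.10 differed from them by being higher in the mutant at every age. It stood at 2.89 ± 0.003 at 170 days, with 2913 and 1863 in the mutant against 488 and 388 in the wild type, and between 0.70 (120 days) and 4.37 (190 days) otherwise. Under other settings its 170-day ratio ran from 2.28 (control spots Y1 to Y4) to 3.84 (the authors' deposited ratio), far wider than that SD. Clone 12.C.7 changed sides between neighbouring collections, from -2.87 (150 days) through 2.77 ± 0.04 (170 days) to 0.59 (190 days). Its 170-day intensities were 8688 and 5811 in the mutant against 1726 and 1409 in the wild type. Clone 22.F.9 stood at 2.60 ± 0.19, with 8972 and 9303 in the mutant against 2226 and 2375 in the wild type, and at -1.05 at 190 days. The next 5 clones, 17.A.4, 5.G.9, 17.D.8, 26.F.5 and 10.H.4, had mean ratios between 2.50 and 2.60. Of the 10 highest clones, 9.C.10 was the only one that was higher in the mutant at all 4 other ages.

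**Figure D3:**
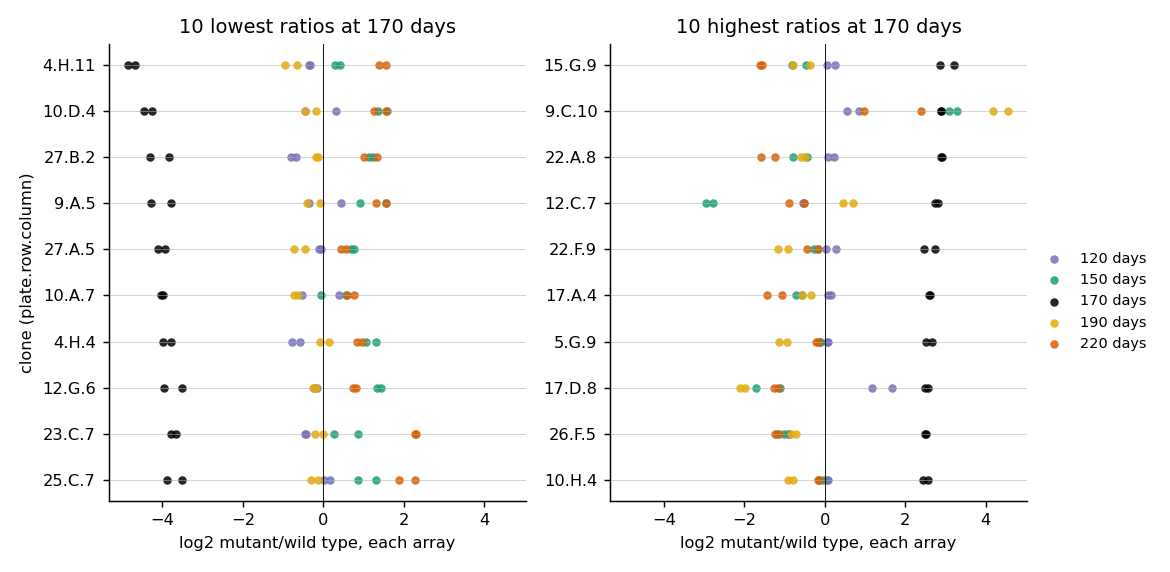
Log2 ratio of mutant over wild type on each array (2 points per age) for the 10 clones with the lowest and the 10 with the highest ratio at 170 days. The 170-day points (black) of the lowest clones lie between -4.87 and -3.52, apart from those of the other ages, and clone 9.C.10 is alone among the highest in lying above 0 at every age.

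Many of the strongly different clones shared a profile at the other ages. The 218 clones 4-fold lower on both arrays fell into 97 groups when joined by their ratios on the 8 arrays of the other ages (root mean square difference of at most 0.3 between any pair of clones in a group), and 51 of these groups held 1 clone. The groups were formed after the values were seen. One of the largest held 13 clones from 11 plates, among them 27.B.3, 18.D.10 and 16.G.9. Before 170 days its mean ratio was -0.05 ± 0.10 (SD over clones) at 120 days and 0.95 ± 0.11 at 150 days. It then stood at -3.22 ± 0.18 at 170 days, and after that at -0.33 ± 0.05 (190 days) and 1.997 ± 0.07 (220 days). These clones were thus higher in the mutant at 150 and 220 days and lower by far at 170 days. Of all 5852 clones, whatever their 170-day ratio, 23 lay within 0.3 of this group's profile at the other ages. All 23, the 13 of the group included, were 4-fold lower at 170 days, between -3.70 and -2.79. The 13 had been chosen as 4-fold lower, so their part of this count was fixed beforehand. Over all 5852 clones, 218 were 4-fold lower.

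A second group of lower clones also held 13, from 12 plates, with 30.A.3 and 55.E.4 the lowest. Its ratio was -2.98 ± 0.13 at 170 days, between 1.07 ± 0.13 (150 days) and 1.20 ± 0.06 (220 days). Within 0.3 of that profile lay 38 clones, of which 34 were 2-fold and 26 were 4-fold lower at 170 days. These counts again include the 13 clones of the group, chosen as 4-fold lower. The 21 clones 4-fold higher formed 10 groups. The largest held 8 clones from 8 plates, including 22.F.9, 5.G.9 and 10.H.4, at 2.43 ± 0.15 at 170 days and -0.94 ± 0.10 at 190 days. Within 0.3 of its profile lay 116 clones, of which 22 (19.0%) were 2-fold higher at 170 days, where 7.95% of all clones were. Both the 116 and the 22 include the 8 clones of the group, chosen as 4-fold higher, which raises the share. The 116 ran from -0.05 to 2.60 at 170 days with a median of 0.55, against 0.03 for all clones. The 38 clones around the second group of lower clones also ran widely, from -4.08 to -0.53. The narrow range was thus seen around the first group of lower clones and not around the second. The files do not tell whether the clones of a group are copies of 1 transcript.

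The clones with the largest differences came mainly from plates 1 to 29. On those plates 607 of 2783 clones (21.8%) were 2-fold lower in the mutant, against 391 of 3069 (12.7%) on plates 30 to 61. For 4-fold lower clones the numbers were 195 (7.01%) and 23 (0.75%), and for 8-fold 63 and 2. All 21 clones that were 4-fold higher were on plates 1 to 29, while 2-fold higher clones made up 7.04% there and 8.77% on plates 30 to 61. By plate, the share of 2-fold lower clones ran from 10.4% to 30.2% on plates 1 to 29, with plate 27 the highest, and from 6.25% to 18.8% on plates 30 to 61. Within the 16 printing blocks that hold clones of both sets, 7.36% of 815 and 1.05% of 1149 clones were 4-fold lower. The median ratio on the 2 arrays was -0.14 and -0.13 on plates 1 to 29, and 0.16 and 0.11 on plates 30 to 61. Within those blocks the median on plates 1 to 29 minus that on plates 30 to 61 averaged -0.27 and -0.26. How far the shares go with this offset of all ratios was not tested. The cut between plates 29 and 30 was set here and is not taken from the labels. What the 2 sets of plates hold is not given in the sources used here, and the difference between them was not tested.

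**Figure D4:**
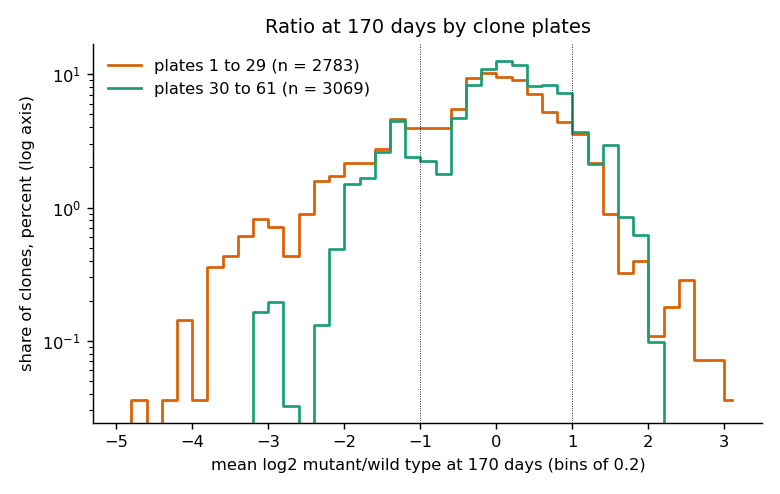
Share of clones (percent, log axis) in bins of the mean log2 ratio at 170 days, for plates 1 to 29 (orange) and plates 30 to 61 (green), with dotted lines at 2-fold. Below -2 the orange line runs above the green one, where 195 and 23 clones were 4-fold lower on both arrays.

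Clones of plates 1 to 29 were also brighter, with a median log2 level of 11.9 against 11.0 on plates 30 to 61. Brightness went with the count of called clones. With the clones cut into 5 equal classes of brightness, 8.88% of the dimmest class were 2-fold lower and 4.87% 2-fold higher, and 22.5% and 8.12% of class 4. In the brightest class the shares were 14.7% and 10.4%. The hybridisation SD was 0.31 in the dimmest and 0.11 in the brightest class, so dim clones were the less precisely measured. Within each of the 5 classes a larger share was 4-fold lower on plates 1 to 29 than on plates 30 to 61, from 1.81% against 0.22% in the dimmest to 8.75% against 1.07% in class 2. For 2-fold lower clones the share was also the larger on plates 1 to 29 in each class. In class 4, however, it was 22.9% against 21.9%, nearly the same.

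The clones lower in the mutant at 170 days were to a large part clones that were higher in the mutant at other ages. Among the 998 the median ratio was 0.69 (150 days), 0.23 (190 days) and 0.71 (220 days), but -0.02 at 120 days. The median of all clones lay between -0.06 and 0.03 at each age. At 150 days 324 of the 998 (32.5%) were 2-fold higher, which is 77.1% of all 420 clones higher then, and 80 (8.02%) were 2-fold lower. Of all clones 7.18% were higher and 5.55% lower at that age. At 190 days 210 (21.0%) were 2-fold higher and 22 (2.20%) lower, where 6.22% and 4.8% of all clones were. At 220 days 197 (19.7%) were higher, which is 77.0% of the 256 clones higher then, and 20 lower, where 4.37% and 2.19% of all clones were. At 120 days the sides were the other way round, with 61 (6.11%) higher and 116 (11.6%) lower, where 3.62% and 5.19% of all clones were. In all, 526 of the 998 (52.7%) were 2-fold higher at 1 or more other ages and 137 (13.7%) were 2-fold lower, where 15.9% and 12.7% of all clones were. A further 379 (38.0%) were 2-fold at no other age, against 73.4% of all clones.

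Most of the 465 clones higher in the mutant at 170 days were not 2-fold at any other age, as was so for most clones on the array. They numbered 321 (69.0%), against 73.4% of all clones and 81.9% of the 4389 clones not called at 170 days. The median ratio of the 465 was 0.34 (120 days), 0.01 (150 days), -0.35 (190 days) and -0.46 (220 days). At 120 days 53 (11.4%) were 2-fold higher and 6 (1.29%) lower, where 3.62% and 5.19% of all clones were. At 150 days the mutant was 2-fold above the wild type in 14 of them (3.01%) and below it in 16 (3.44%), both smaller shares than over all clones. The 190-day collection had 40 lower (8.60%) and 26 higher (5.59%), where 4.8% and 6.22% of all clones were. In that of 220 days 47 (10.1%) were lower, against 2.19% of all clones, and 0 were higher, against 4.37%. So the set leaned to the higher side at 120 days and to the lower side at 190 and 220 days.

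Taken by genotype, the level at 170 days stood apart from the neighbouring ages in mutant and wild type alike. The levels are quantile-normalized between arrays and given relative to each clone's mean over all ages. Since the 170-day levels chose the clones, they are a description. In the lower set the median level of the mutant was 0.65 (150 days), -0.90 (170 days) and 0.47 (190 days), and that of the wild type -0.01, 0.75 and 0.13. The median step away from the mean of both neighbouring ages was -1.59 for the mutant and 0.71 for the wild type, so the mutant was the farther of the genotypes from its own neighbouring ages. In the higher set the steps were 0.88 for the mutant and -0.64 for the wild type.

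At the ages that did not choose it, the lower set had a low signal at 120 days, which set its early ages below its late ones. The mean level of both genotypes at 190 and 220 days was above that at 120 and 150 days in 820 of the 998 clones (82.2%), against 46.9% of the 465 higher clones and 45.6% of all clones. The median difference was 0.52 (log2) in the lower set, -0.04 in the higher set and -0.05 over all clones. Each genotype of the lower set had this difference, at 0.68 (mutant) and 0.51 (wild type). By age, the median level of the mutant was -0.76 (120 days), 0.65 (150 days), 0.47 (190 days) and 0.66 (220 days). That of the wild type was -0.74, -0.01, 0.13 and -0.07. The level at 150 days was thus near the late ones, and that at 120 days was below them. Arrays differ between ages as well, and array differences and development cannot be told apart here.

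**Figure D5:**
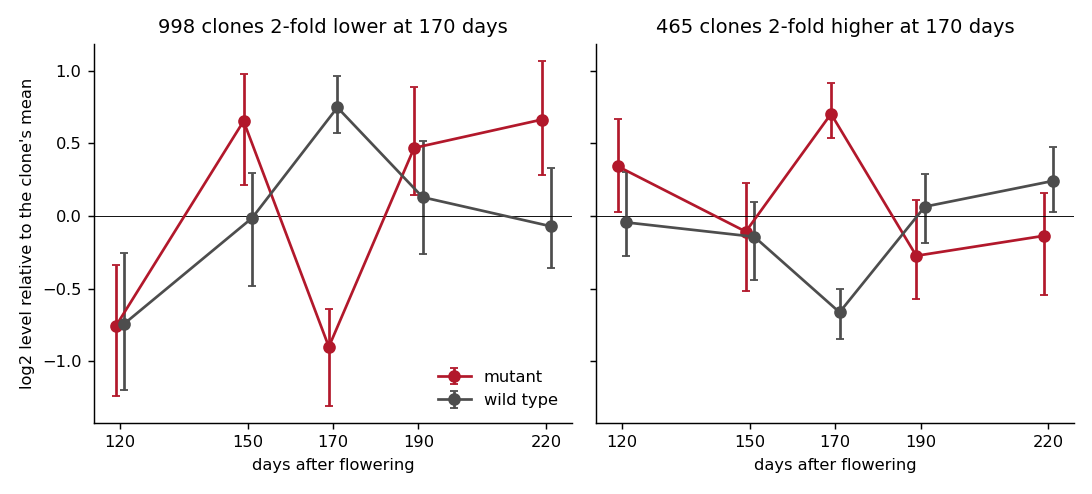
Median log2 level over clones relative to each clone's mean, by days after flowering, in mutant (red) and wild type (grey), for the clones 2-fold lower (left) and higher (right) at 170 days. Bars run from the 25th to the 75th percentile over clones, and in the lower set the mutant lies at -0.90 at 170 days, between 0.65 and 0.47 at the neighbouring ages, and the wild type at 0.75.

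A test was possible of whether the ratio at 170 days differed from that at the other 4 ages. It asks whether a clone's mutant-to-wild-type ratio at 170 days lies outside the spread of the other 4 collections, and it takes the single 170-day value to vary as they do. In limma 116 of 5846 clones (1.98%) passed an adjusted p of 0.05, of which 98 (1.68%) were lower at 170 days and 18 (0.308%) higher. All 116 were also 2-fold on both 170-day arrays in that direction, and at the other ages their mean ratio had the opposite sign. The test picks clones by the 170-day ratio minus that mean, which favours both traits, so neither is separate evidence. The medians of the 98 were 0.07, 0.91, -2.95, 0.09 and 0.97 from 120 to 220 days, and those of the 18 were -0.38, -1.14, 2.46, -0.997 and -1.23. Of the 98, 86 came from plates 1 to 29, as did all 18, while 2783 of all 5852 clones lie on those plates. The clones 4-fold different at 170 days were placed alike, with 195 of 218 lower and all 21 higher ones there. Plates 10 and 27 held 11 of the 116 each, and 96 of all clones each.

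The clones with the smallest p are given next, and the test favours clones whose ratio was steady at the other ages. Clone 26.F.5 stood at 2.49 and 2.52 on the 170-day arrays and between -1.19 and -0.77 at the other ages, a difference of 3.50 (SE 0.46, adjusted p = 0.0476 in limma). The next clones had the same adjusted p. Clone 7.G.2, at 2.46 and 2.53, differed by 3.58 (SE 0.47) from other ages between -1.37 and -0.74. Clone 10.F.6, at 2.21 and 2.25, differed by 3.32 (SE 0.46) from other ages between -1.30 and -0.92. All 3 were thus lower in the mutant at 120, 150, 190 and 220 days and higher at 170 days. In the other direction clone 10.G.3, at -3.35 and -3.39, differed by -3.99 (SE 0.55) from other ages between 0.12 and 1.14. Clone 10.B.3, at -3.24 and -3.28, differed by -3.84 (SE 0.53) from other ages between 0.14 and 1.08. Clone 27.A.5 differed by -4.16 (SE 0.60) from other ages between -0.59 and 0.73. The wild-type signal of 10.G.3 was near the top of the scale on the first array (44701), so its ratio there may be too small in size.

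These calls lie close to the threshold, as their adjusted p in limma ran from 0.0476 to 0.0499, and 1236 clones had an unadjusted p under 0.05. No clone passed with median centring, with the authors' deposited ratios, with the arrays centred on control spots Y1 to Y4, without 150, 190 or 220 days, with either array of each age alone, or with the sign at 170 days turned. Without 120 days 692 passed.

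The brightest clones at 170 days, 31.D.3, 31.B.4 and 30.C.8, were not different between the genotypes by the 2-fold rule. Their mean ratios were -0.12, -0.23 and -0.22, and with median centring 0.17, 0.06 and 0.07, so no direction is given for them. In the wild type all 3 were saturated on both arrays (45427 and 54998 for 31.D.3), so their wild-type signal is a lower bound.

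At 170 days the authors' deposited table gave a ratio of 0.5 or less to 939 of 5612 clones (16.7%) and a ratio of 2 or more to 493 (8.78%). Of the 998 clones counted as lower here, 993 have a ratio in the authors' deposited table and 844 of these are 2-fold lower there. Of the 465 counted as higher, 458 have one and 385 are 2-fold higher. The log2 of the authors' deposited table correlated with the ratios computed here at r = 0.96 across clones, with a median absolute difference of 0.16.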

How the data were processed

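Two-colour cDNA arrays were hybridised with mutant and wild-type fruit RNA, and per the labels' protocols the RNA (5 µg each) was amplified before Klenow labelling. The authors deposited an intensity per spot and dye, per the file headers. From the values these were background-subtracted, as they reach below 0. Scanner and background method are not stated in the labels or headers. The deposited ratio per spot and per clone is mutant over wild type, from the values, and the name of the clone table says that it is lowess-normalized. The series table is log2 of the deposited ratio per spot, from the values.

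Intensities at or below 0 were left out (18 and 33 clone spots at 170 days). Log2 ratios were normalized by global loess within each array (limma 3.58.1, R 4.3.3), with the 1584 control spots at weight 0, turned to mutant over wild type, and averaged over the 3 spots. Dim clones were dropped: 5 or more of the 10 arrays had to show a clone, in Cy5 or Cy3, over the 95th percentile of the blank and DMSO spots. Levels were quantile-normalized between arrays, and the ratio was split evenly between the genotypes. At 170 days clones past 2-fold on both arrays were counted. For the test, the arrays of an age were averaged to 1 value, and limma (lmFit, eBayes) compared 170 days with the other 4 ages, two-sided, with Benjamini-Hochberg adjustment over 5846 clones and 3 residual degrees of freedom. Its p-values measure the spread between collections. The test was checked on simulated data, drawn as normal and independent between clones, with the 170-day value varying as those of the other ages. That check cannot tell whether these assumptions hold for the fruit data, as it was built on them. The number of arrays limits the precision.

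The repeat number of an array marks its dye orientation, and both repeats hold the same extracts. The clones named are the 10 lowest and 10 highest ratios, the 3 clones with the smallest p in each direction and the 3 brightest, by rule. The profile groups and the other clones named were picked with their values in view. The comparison, the rule and the tests were chosen with earlier results of these data known. Alternatives were another normalization, centring, filter, offset and spot average, single arrays, time points left out, and other fits.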

Additional observations from a re-analysis of the deposited data

Results flagged for a closer look

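The number of clones 2-fold lower in the mutant, 998 at 170 days, lay far from those of the other 4 ages (128 to 325). It was the only such value in 29 sets of 4 or 5 ages that were checked. Chance would flag about 1 in 20 sets, so 1 flagged set of 29 is no more than chance would give. In limma 116 clones had a ratio at 170 days that differed from the other 4 ages. Clones 2-fold in opposite directions on both arrays of each age numbered 67 for 170 and 120 days, 340 for 170 and 150 days, 250 for 170 and 190 days and 244 for 170 and 220 days, a difference that was not tested. Of the 340, 324 were lower at 170 days and higher at 150 days, and 16 were the other way round.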

How the results depend on the processing

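With the sign at 170 days turned, the counts of 2-fold clones were exchanged, at 465 lower and 998 higher. In all other settings run the counts kept the lower side as the larger one. They were 879 to 1032 lower and 397 to 465 higher across the settings other than the control spots and single arrays, 1064 to 1083 lower and 516 to 635 higher on 1 array alone, and 1599 lower and 72 higher with the arrays centred on control spots Y1 to Y4, which moved the median clone to -0.59 and the lower share from 68.2% to 95.7%. The 116 calls of the test against the other ages in limma were less stable. They became 0 with median centring (1167 clones at an unadjusted p under 0.05), 0 with the authors' deposited ratios (1200), 0 on the control spots (160), 0 with the sign at 170 days turned (665), 0 with 150 days (949), 190 days (1036) or 220 days (1395) left out, and 0 without either array of each age (1229 and 1141). They became 432 with a trended and robust eBayes, 692 when 120 days was left out, 630 on 10 arrays with age as a random block, and 523 when a replicate block (which is the dye orientation) was added to that fit, which shared 107 of the 116. The fits on 10 arrays take the 2 arrays of an age as partly independent. Without a time point the fit has fewer degrees of freedom, and otherwise the cause was not tested. With the sign turned the differences of the 6 named clones were 2.75 for 10.G.3, 2.68 for 10.B.3, 3.89 for 27.A.5, -1.51 for 26.F.5, -1.41 for 7.G.2 and -1.15 for 10.F.6. Of 240 ratios of the named clones at 170 days under other settings, 236 kept their sign, and 152 moved by no more than the SD between the arrays. The single-array settings are among those 152 by arithmetic, as 1 of 2 arrays cannot lie farther from their mean than that SD. The sign turned in 4, all of the brightest clones: with median centring 31.D.3 moved to 0.17, 31.B.4 to 0.06 and 30.C.8 to 0.07, and with loess within printing blocks 31.B.4 moved to 0.21. Where a clone is dim, its hybridisation error limits the ratio.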
